A study of Mus musculus with 10 samples.

Results

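The genes described here are 44 genes of the skeletal muscle sarcomere, of the calcium handling that switches it on and of its energy supply. They were chosen by name, and all 44 were found among the 31285 genes listed for 10 RNA sequencing libraries of mouse inguinal (subcutaneous) white adipose tissue. The mice were 20 months old and of 2 genotypes, 5 libraries each: Flox, the comparison genotype, and Ad-GHRKO, in which the growth hormone receptor gene Ghr is knocked out in adipose tissue by the series title, or knocked down by the sample labels. All were kept on regular chow and the fat was taken at necropsy. The sources used here do not give the Cre driver, the sex of the mice or whether each library came from a separate animal, so p-values measure the spread between these libraries. Levels are in FPKM, fragments per kilobase of gene scaled to library size, which allows genes of unequal length to be set side by side.

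In a sarcomere, the contractile unit of striated muscle, thick filaments of myosin slide along thin filaments of actin that are anchored in the Z-disc. Calcium released from the sarcoplasmic reticulum binds troponin, which moves tropomyosin and frees actin for myosin, and a calcium pump then takes the calcium back up. Fast and slow muscle fibres build this machine from different isoforms, made from separate genes for myosin, troponin, the pump and calsequestrin. White adipocytes build no sarcomeres.

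The libraries held 14.6 to 19.2 M reads (mega reads) as recovered from the deposited values. Ghr, the targeted gene, ranged from 72.9 to 130 FPKM in Flox, against 13.0 to 20.1 FPKM in Ad-GHRKO. The adipocyte markers were present in every library, with Adipoq at 458 FPKM or more, and the 6 of them summed to 2812 FPKM in Ad-GHRKO 1, 5246 in Flox 3 and 5692 in Flox 5, against 6464 to 8733 in the other 7. Cardiac markers summed to no more than 2.91 FPKM in any library. The sums ran from 3.60 to 11.0 FPKM for tendon and fascia markers, 178 to 1059.7 for blood, 1.03 to 21.9 for B cells and 0.179 to 4.08 for epithelium.

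Of these 10 libraries, 3 held much muscle RNA, and they did not follow genotype: Flox 3, Flox 5 and Ad-GHRKO 1. The 44 genes took 8.03%, 11.5% and 20.1% of the reads of these 3. They took 0.329% in Ad-GHRKO 5 and 0.0346% to 0.0562% in the remaining 6. Ad-GHRKO 5 thus lay between the groups, and the 3 libraries, called muscle-rich below, were picked by the level of these same genes, so their contrast with the other 7 is a description with no test. In such bulk samples more muscle cells and more muscle RNA per cell cannot be told apart.

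Acta1, which encodes skeletal alpha-actin, the main protein of the thin filament (ENSMUSG00000031972, chromosome 8, 123891769 to 123894751, minus strand, GRCm38), was at 23.4, 34.5, 7333, 2.52 and 11169 FPKM in Flox 1 to 5. In Ad-GHRKO 1 to 5 it was at 20326, 68.7, 28.9, 32.4 and 254 FPKM. Each muscle-rich library was thus far above every other, and Ad-GHRKO 5 was above the 6 lowest. Ckm, the muscle creatine kinase that regenerates ATP (ENSMUSG00000030399, chromosome 7, 19404776 to 19422841, plus strand), was at 0, 0.0192, 1783, 0.0577 and 2786 FPKM in Flox 1 to 5 and at 4559, 0.0895, 0, 0.0178 and 53.5 FPKM in Ad-GHRKO 1 to 5. Its level in the 6 libraries with little muscle rested on 0 to 5 reads, and its order over the other 4 was that of Acta1.

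Across all 44 genes, 38 were higher in each muscle-rich library than in every one of the other 7, a pattern that 4.17% of all genes with a value showed. The exceptions were Tpm3, Tnnc1, Tnni1, Tnnt1, Myl2 and Pygm. Of the 36 genes with at least 1 FPKM in all 3 muscle-rich libraries, 28 were at least 10 times the highest of the other 7 there, against 1.51% of all genes with such a level. Their levels usually rose in the order Flox 3, Flox 5 and Ad-GHRKO 1, which 26 of the 44 genes followed, while 9 were highest in Flox 3, 3 in Flox 5, 31 in Ad-GHRKO 1 and 1, Tpm3, in Ad-GHRKO 5. Since the libraries were picked by these genes, the shares describe the choice and are no test of it.

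**Figure D1:**
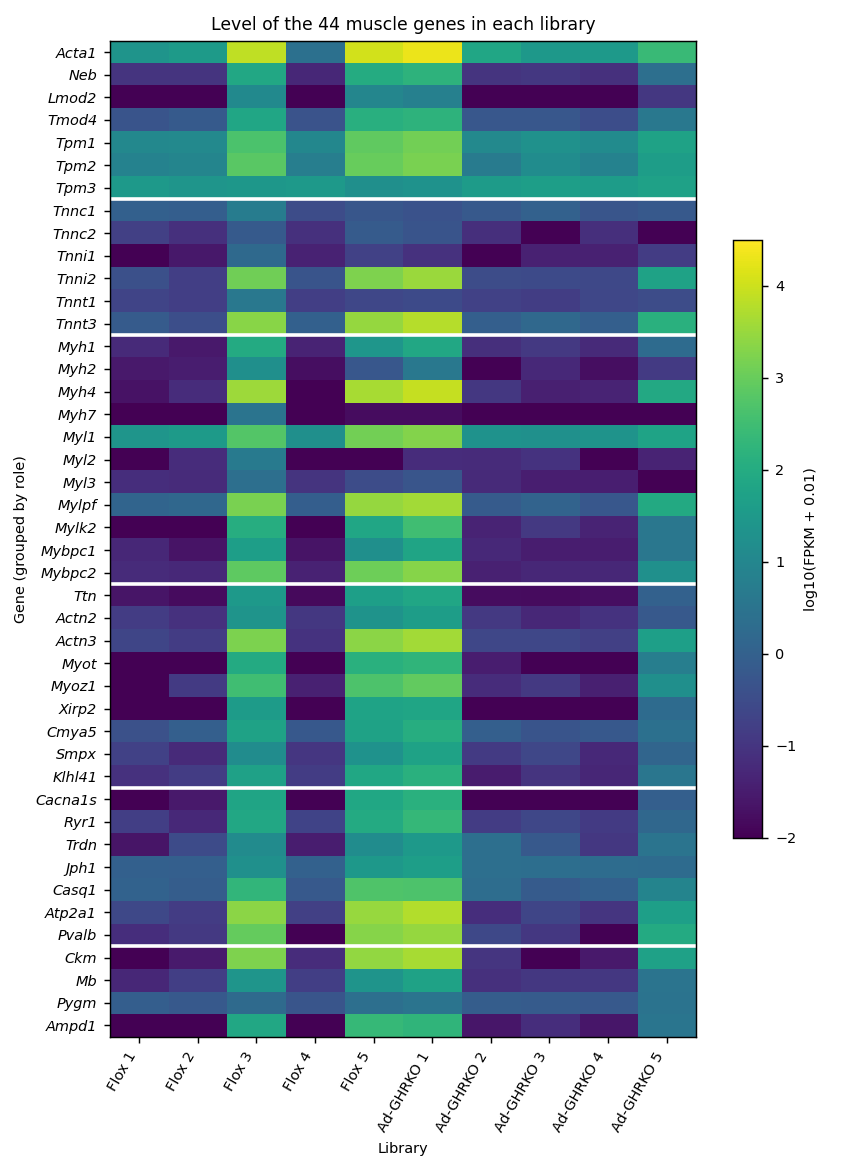
Level of each of the 44 genes (rows, grouped by role with white lines between the groups) in each of the 10 libraries (columns), coloured by log10(FPKM + 0.01). Flox 3, Flox 5 and Ad-GHRKO 1 stand out in most rows, Ad-GHRKO 5 is intermediate, and Tpm3 and Pygm, at 16.8 to 53.6 and 0.505 to 3.18 FPKM, show less contrast.

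The promoters of 3 genes are shown because their levels set the pattern: Acta1 and Myh4, the most abundant genes of the set in the muscle-rich libraries, and Tnnt1, a slow-fibre gene that was high in Flox 3 alone. Each is the RefSeq window from 250 bases before to 50 bases after a start (GRCm38.p6), at chr8:123894726-123895025 on the minus strand, chr11:67237562-67237861 on the plus strand and chr7:4515926-4516225 on the minus strand. Capitals mark matches, on either strand, to the E-box CANNTG bound by MyoD-type factors, to TATAAA, to the MEF2 motif and to the CArG box of serum response factor.
Acta1: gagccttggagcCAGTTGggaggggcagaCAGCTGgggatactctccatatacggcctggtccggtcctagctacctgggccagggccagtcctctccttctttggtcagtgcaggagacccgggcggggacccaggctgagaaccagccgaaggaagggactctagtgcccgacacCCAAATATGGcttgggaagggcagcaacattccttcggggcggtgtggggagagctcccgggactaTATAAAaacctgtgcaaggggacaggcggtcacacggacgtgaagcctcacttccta
Myh4: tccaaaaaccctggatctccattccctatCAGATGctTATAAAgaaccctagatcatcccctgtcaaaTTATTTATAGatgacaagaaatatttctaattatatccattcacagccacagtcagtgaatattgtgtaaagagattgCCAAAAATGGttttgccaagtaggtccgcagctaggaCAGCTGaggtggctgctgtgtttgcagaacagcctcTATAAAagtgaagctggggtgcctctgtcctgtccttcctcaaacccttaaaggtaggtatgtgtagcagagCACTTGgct
Tnnt1: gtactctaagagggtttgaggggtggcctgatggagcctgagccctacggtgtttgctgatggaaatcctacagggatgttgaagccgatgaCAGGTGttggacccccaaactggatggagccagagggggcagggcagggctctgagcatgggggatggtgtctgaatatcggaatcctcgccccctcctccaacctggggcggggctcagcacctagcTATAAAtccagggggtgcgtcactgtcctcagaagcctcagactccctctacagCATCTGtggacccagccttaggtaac
The Acta1 window held 2 E-boxes, 1 TATAAA and 1 CArG box. That of Myh4 held 3 E-boxes, 3 matches to TATAAA, 1 MEF2 motif, which overlaps 1 of the TATAAA matches, and 1 CArG box, and that of Tnnt1 held 2 E-boxes and 1 TATAAA. RefSeq windows were matched for 34 of the 44 genes, 41 windows in all. Of these 41, 36 held an E-box (72.3% of all 32851 windows of this length did), 7 TATAAA (13.6% of all), 6 a MEF2 motif (3.19%) and 3 a CArG box (1.63%). A match describes the letters only and shows no bound factor.

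In the thin filament, the tropomyosins Tpm1 and Tpm2, which cover the myosin sites of actin, had 454, 828 and 1338 FPKM and 676, 959 and 1584 FPKM in Flox 3, Flox 5 and Ad-GHRKO 1. Both were also present in the 6 libraries with little muscle, at 10.3 to 19.2 FPKM for Tpm1 and 4.98 to 14.6 FPKM for Tpm2. Tropomyosin genes are also used by smooth muscle and other cells. Tpm3, the slow-fibre and general tropomyosin, was at 28.2, 16.8 and 20.8 FPKM in the muscle-rich libraries, inside or below the 25.0 to 43.4 FPKM of the 6 and the 53.6 FPKM of Ad-GHRKO 5. Neb, the giant protein that lies along actin, was at 77.6, 99.7 and 157 FPKM, and Tmod4, which caps the pointed end of the filament, at 72.2, 129 and 164 FPKM. Lmod2, which elongates the filament there, went the other way within the 3, with 12.4, 9.49 and 6.91 FPKM, and was listed at 0 in all 6 libraries with little muscle.

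Of troponin, subunits T and I were almost all of the fast form. Tnnt3, the fast troponin T that ties the complex to tropomyosin, was at 2260, 2971 and 5929 FPKM, and Tnni2, the fast inhibitory subunit, at 1254, 1774 and 3354 FPKM in Flox 3, Flox 5 and Ad-GHRKO 1. Their slow partners Tnnt1 and Tnni1 were at 4.04 and 1.68 FPKM in Flox 3. In Flox 5 and Ad-GHRKO 1, Tnnt1 was at 0.238 and 0.273 FPKM, where the 6 libraries with little muscle had 0.144 to 0.235 FPKM. These 2 libraries therefore had abundant fast troponin T beside slow troponin T near the level of the fat.

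Tnnc2, the fast calcium-binding subunit (ENSMUSG00000017300, chromosome 2, 164777161 to 164779967, minus strand), did not keep pace with its partners. It was at 0.671, 0.722 and 0.478 FPKM in the muscle-rich libraries, from 7 to 11 reads, and under 1 FPKM in every library. In the annotation 74.0% of its exon bases overlap exons of Ube2c on the opposite strand, and the sources used here do not say how the authors counted such reads. The part of that overlap in the value was not tested. The slow subunit Tnnc1 was at 5.36 FPKM in Flox 3 and at 0.555 and 0.420 FPKM in Flox 5 and Ad-GHRKO 1, against 0.323 to 1.02 FPKM in the 6.

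The thick filament was built on type 2B myosin. Myh4, the heavy chain of the fastest glycolytic fibres (ENSMUSG00000057003, chromosome 11, 67238029 to 67260446, plus strand), was at 0.0105, 0.0559, 3503, 0 and 4562 FPKM in Flox 1 to 5 and at 8532, 0.104, 0.0264, 0.0345 and 84.9 FPKM in Ad-GHRKO 1 to 5. Of the summed FPKM of the 4 adult heavy chains it made 96.8% in Flox 3, 99.4% in Flox 5, 99.04% in Ad-GHRKO 1 and 97.7% in Ad-GHRKO 5. Myh1, the 2X chain, made 2.61%, 0.554%, 0.910% and 2.17% in the same order, and Myh2, the 2A chain of fast oxidative fibres, 0.482%, 0.0122%, 0.0468% and 0.132%. The share of non-2B myosin was thus highest in Flox 3 and next in Ad-GHRKO 5, with Flox 5 and Ad-GHRKO 1 lowest. The remaining 6 libraries held 5 to 22 reads on the 4 genes together, too few for a share.

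Myh7, the slow heavy chain, was found in quantity in Flox 3 alone, with 501 reads, 3.12 FPKM and 0.123% of heavy chain reads (exact 95% binomial interval 0.113% to 0.134%). Flox 5 and Ad-GHRKO 1 had 1 read each, out of 525792 and 948921 heavy chain reads. Ad-GHRKO 5 had 0 of 7648 reads, which allows a share of up to 0.0392% by a limit of 3 counts and up to 0.0482% by the exact interval, both below that of Flox 3. Intervals and limits cover counting error only. The 4 genes are close paralogs, and the sources used here do not say how reads matching more than 1 of them were counted.

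The light chains and binding proteins divided in the same way. Mylpf, the fast regulatory light chain, was at 1546, 3043 and 4069 FPKM and Myl1, the fast essential light chain, at 589, 1290 and 1931 FPKM in Flox 3, Flox 5 and Ad-GHRKO 1. Myl1 was also at 17.5 to 33.8 FPKM in the 6 libraries with little muscle. The slow light chain Myl2 was at 4.40 FPKM in Flox 3, 0 in Flox 5 and 0.0560 in Ad-GHRKO 1, and Myl3 at 2.39, 0.308 and 0.508 FPKM. Mybpc2, the fast myosin binding protein C that stripes the thick filament, was at 764, 1140 and 2120 FPKM. The slow form Mybpc1 was at 43.3, 17.4 and 61.8 FPKM, so Flox 5 had least of it. Mylk2, the kinase of the regulatory light chain, was also lowest in Flox 5, at 69.9 FPKM against 113 in Flox 3 and 317 in Ad-GHRKO 1.

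For each of the 9 fast and slow pairs that had a value in all 3 muscle-rich libraries, the share of the slow isoform was highest in Flox 3. It was 0.178% for Tnnt1 with Tnnt3 in Flox 3, against 0.00802% in Flox 5 and 0.00460% in Ad-GHRKO 1. For Myl3 with Myl1 it was 0.404%, 0.0239% and 0.0263%, and for Casq2 with Casq1, the calcium-storing calsequestrins, 1.34%, 0.322% and 0.353%. The pair of alpha-actinins differed least, with Actn2 at 1.32%, 0.908% and 1.03% of Actn2 and Actn3. Actn2 was set in the place of the slow isoform, but it is the form of all fibres, so its share is no slow-fibre share. For Tpm3 and for the slow calcium pump Atp2a2, the share also depends on the fat, since the 6 libraries with little muscle held 25.0 to 43.4 and 23.7 to 42.2 FPKM of them. The slow isoform was thus the smaller part of these 9 pairs in each muscle-rich library. The exception was the tenth pair, troponin C, with Tnnc1 at 88.9% in Flox 3 and 43.5% in Flox 5 of a sum of few reads, and with a sum under 1 FPKM in Ad-GHRKO 1.

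**Figure D2:**
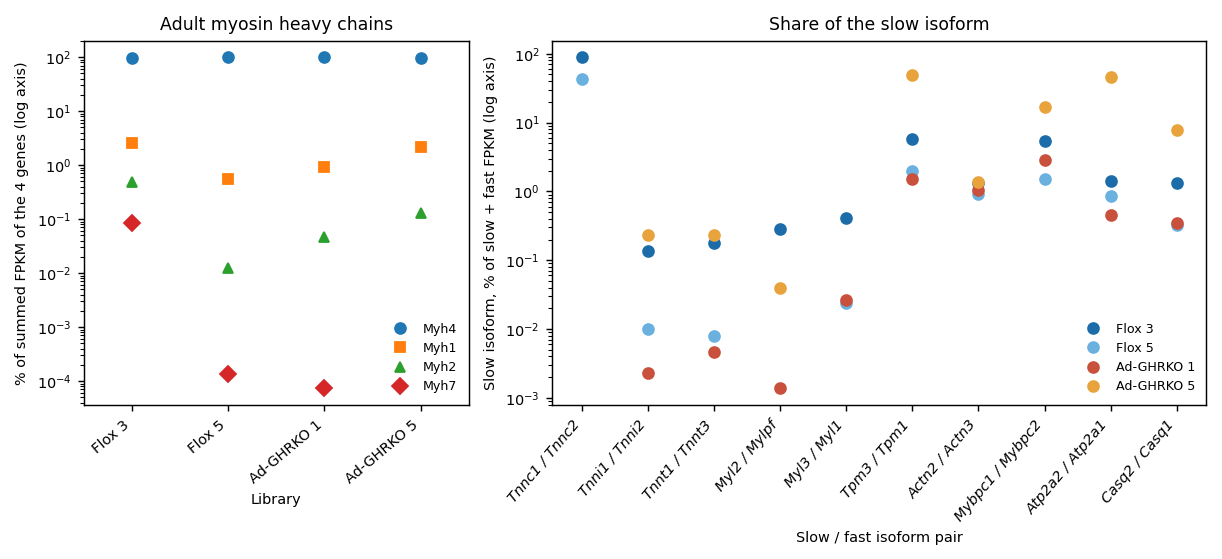
Left, share of each of 4 adult myosin heavy chains in their summed FPKM (%, log axis) in the 4 libraries with muscle reads, where Myh4 makes 96.8% to 99.4% and Myh7 is visible mainly in Flox 3. Right, the slow isoform as % of slow plus fast FPKM (log axis) for 10 isoform pairs, with shares of 0 and pairs summing to under 1 FPKM left out; among the 3 muscle-rich libraries Flox 3 is highest for each pair with 3 values.

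At the Z-disc, which joins neighbouring sarcomeres, Actn3, the alpha-actinin of fast fibres, was at 1687, 2370 and 4080 FPKM, and Actn2, the form of all fibres, at 22.5, 21.7 and 42.5 FPKM. Myoz1, a calcineurin-binding protein of fast fibres, was at 322, 473 and 893 FPKM and Myot, myotilin, at 95.7, 131 and 181 FPKM. Ttn, the molecular spring that spans from Z-disc to the middle of the sarcomere, was at 33.6, 46.5 and 70.4 FPKM. The other scaffold genes Xirp2, Cmya5, Smpx and Klhl41 lay between 14.7 and 137 FPKM in the muscle-rich libraries. In the 6 libraries with little muscle none of these 9 genes reached 1 FPKM, and Ad-GHRKO 5 had 0.631 FPKM of Actn2 and 1.06 to 45.4 FPKM of the other 8.

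Calcium genes followed the filaments. Cacna1s, the voltage sensor of the surface membrane, was at 62.3, 72.8 and 132 FPKM, and Ryr1, the release channel it opens, at 80.5, 93.0 and 208 FPKM. Atp2a1, the fast pump SERCA1, was at 2293, 3145 and 5524 FPKM and was the most abundant of the calcium genes in each of the 3. Pvalb, parvalbumin, a buffer that speeds relaxation of fast fibres, was at 904, 2133 and 3019 FPKM. Casq1, which stores calcium in the reticulum, was at 193, 505 and 485 FPKM, so Flox 5 was level with Ad-GHRKO 1 there although its Acta1 was lower. The junction proteins Trdn, triadin, and Jph1, junctophilin 1, were lower, at 13.5 to 33.02 and 18.4 to 44.4 FPKM.

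Of the energy genes beside Ckm, Ampd1, the muscle AMP deaminase, was at 78.4, 227 and 178 FPKM and was highest in Flox 5. Mb, the oxygen store myoglobin, was at 24.7, 22.5 and 55.9 FPKM, a low level beside Ckm. Pygm, muscle glycogen phosphorylase (ENSMUSG00000032648, chromosome 19, 6384399 to 6398459, plus strand), stayed low, at 1.75, 2.35 and 3.18 FPKM in the muscle-rich libraries, 2.98 FPKM in Ad-GHRKO 5 and 0.505 to 0.862 FPKM in the 6. The 4 libraries with muscle reads were thus above the 6, by far less than for Ckm. It shares no exon bases with another gene, but all 13 other protein-coding genes within 250 kb of it were under 5 FPKM in every library, with a maximum of 2.47 FPKM for Ppp2r5b. Of all 17868 protein-coding genes, 47.3% reached 5 FPKM in at least 1 library. Around Tnnc2, 7 of 16 such neighbours stayed under 5 FPKM. The part of mapping or counting in the low values of Pygm and Tnnc2 was not tested.

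Proportions within the muscle-rich libraries were set by dividing each gene by Ckm in the same library. The highest of the 3 ratios was at most 1.5 times the lowest for 23 of the 42 other genes with a value, and at most 2 times for 29. Acta1 per Ckm differed 1.11-fold over the 3, Myh4 1.20-fold, Atp2a1 1.14-fold, Actn3 1.11-fold, Mybpc2 1.14-fold, Ttn 1.22-fold and Jph1 1.06-fold. These 7 genes thus kept nearly the same proportions while Acta1 itself ran from 7333 to 20326 FPKM. Between 1.5-fold and 2-fold were Actn2 (1.62), Cmya5 (1.57), Smpx (1.697), Casq1 (1.702), Pvalb (1.51) and Mb (1.72), so proportions were looser for some Z-disc, calcium and energy genes. Among the genes outside 2-fold were the slow isoforms of troponin and myosin, with 12.1-fold for Myl3, 32.6-fold for Tnnc1, 37.9-fold for Tnnt1, 56.8-fold for Tnni1 and 1258-fold for Myh7, all highest in Flox 3. Myh2 differed 48.7-fold, Myh1 5.79-fold, Lmod2 4.59-fold, Mybpc1 3.90-fold and Mylk2 2.77-fold, while Ampd1, at 2.08-fold, was highest in Flox 5.

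**Figure D3:**
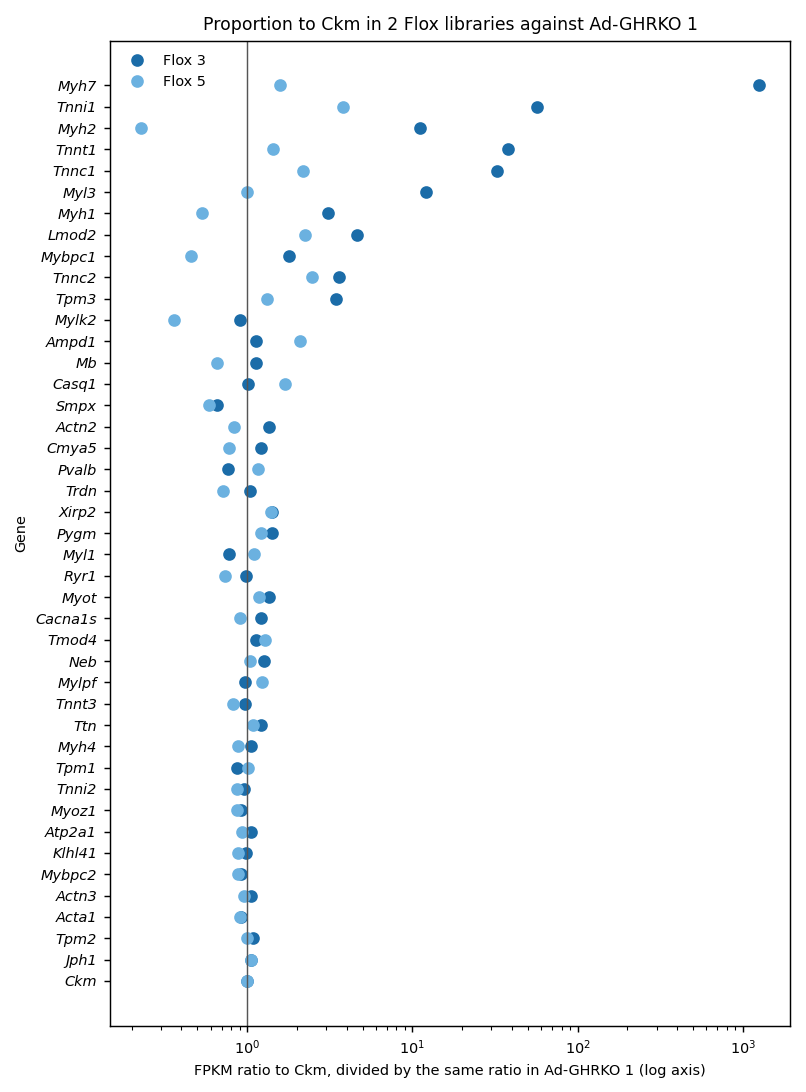
FPKM ratio to Ckm in Flox 3 (dark) and Flox 5 (light), each divided by that in Ad-GHRKO 1 (log axis), for 43 of the genes ordered by their spread over the 3 libraries, with Ckm at 1 by construction. Most genes lie near 1, while Myh7, Tnni1, Tnnt1 and Tnnc1 lie 32.6-fold to 1258-fold higher in Flox 3 and Myh2, Mylk2 and Mybpc1 lie below 1 in Flox 5.

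Ratios between partners in 1 structure were similar for some pairs and looser for others. The FPKM of Acta1 per Myh4 was 2.09 in Flox 3, 2.45 in Flox 5 and 2.38 in Ad-GHRKO 1, and that of Tnnt3 per Tnni2, which work as a pair in each troponin complex, was 1.80, 1.67 and 1.77. Ryr1 per Cacna1s was 1.29, 1.28 and 1.58. Mybpc2 per Myh4 was 0.218, 0.250 and 0.248. Looser were Mylpf per Myh4 with 0.441, 0.667 and 0.477 and Tpm2 per Tpm1 with 1.49, 1.16 and 1.18. Mylpf per Myl1 was 2.63, 2.36 and 2.11, and Neb per Acta1 0.0106, 0.00893 and 0.00774. The largest of these differences was in Pvalb per Atp2a1, a calcium buffer set against the calcium pump, with 0.394, 0.678 and 0.546.

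Ad-GHRKO 5 held a small amount of the same transcripts. Levels there were set against those in proportion to its Ckm, with the median ratio of the 3 muscle-rich libraries as the measure. The 20 genes compared had at least 10 FPKM in all 3. In each of the 6 they had no more than 5% of the Ad-GHRKO 5 level. This rule uses the Ad-GHRKO 5 level itself, so it shapes the median and the genes listed. It left out Ryr1, at 0.598 times the proportional level, but also genes above it such as Jph1 at 3.45 and Trdn at 8.12. Of the 19 other than Ckm, 14 lay between 0.5 and 2 times the proportional level, 5 lay above, and the median was 1.5. Low in this sense were Cacna1s at 0.579, Atp2a1 at 0.716, Mybpc2 at 0.807 and Myh4 at 0.848. High were Mybpc1 at 5.11, Mb at 4.82, Pvalb at 2.59, Myot at 2.46 and Klhl41 at 2.20. In proportion to the other members in place of Ckm, the median was 1.04 and 15 of the 19 lay between 0.5 and 2. Then Cacna1s (0.410) and Atp2a1 (0.487) lay below and Mybpc1 (3.63) and Mb (3.43) above, while Mylk2, Ttn and Neb turned from above to below 1. Against transcript length, a description over genes of 1 library, the 7 genes under 2500 exon bases ran from 1.5 to 4.82. The 12 longer ones ran from 0.579 to 5.11 with a median of 1.16 (Pearson r = -0.34, Spearman rho = -0.54 over the 19). This split was chosen after the values were seen. A relation to length was not particular to Ad-GHRKO 5. Over the same 19 genes, the ratio to Ckm in Flox 3 over that in Ad-GHRKO 1 had r = 0.49 and rho = 0.58, of opposite sign. For Flox 5 over Ad-GHRKO 1 these were 0.13 and 0.16. Ad-GHRKO 5 also had the fewest reads, 14.6 M, and the highest sum of the 6 smooth muscle markers, 318 FPKM against 52.8 to 190 in the other 9 libraries, with none of the 6 at 0. The part of either in these proportions was not tested.

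**Figure D4:**
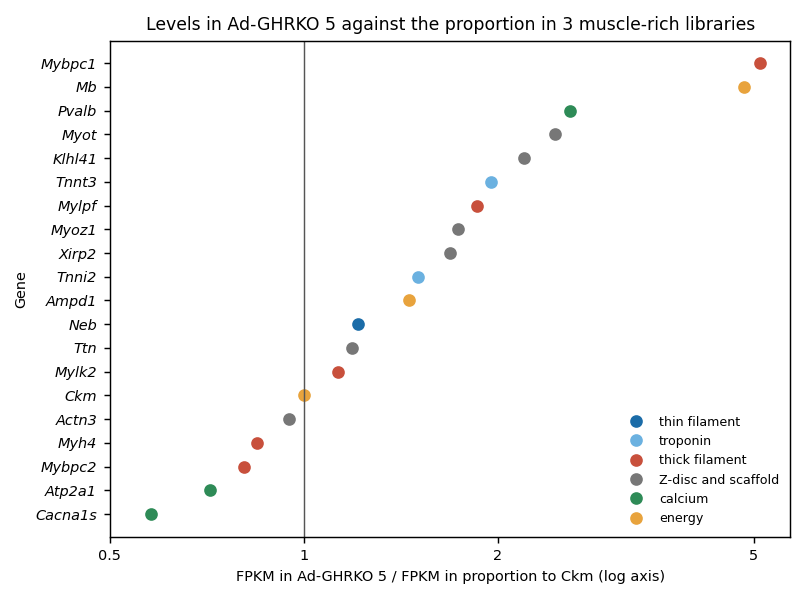
FPKM of 20 genes in Ad-GHRKO 5 divided by the level in proportion to Ckm, from the median ratio in Flox 3, Flox 5 and Ad-GHRKO 1 (log axis; points coloured by role). Ckm is 1 by construction, Cacna1s is lowest at 0.579 and Mybpc1 highest at 5.11.

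In the 6 libraries with little muscle, 33 of the 44 genes were under 1 FPKM throughout and 3 were listed at 0. Above that level in all 6 were Acta1, Tpm1, Tpm2, Tpm3 and Myl1. The 2.52 to 68.7 FPKM of Acta1 there had no matching Ckm. Its paralog Acta2, the smooth muscle actin, was at 38.0 to 174 FPKM in the same libraries, lowest in Flox 4 and highest in Ad-GHRKO 2, the libraries that were also lowest and highest for Acta1. The counting of reads shared by the 2 actins is likewise not known, and their part in these levels was not tested.

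Other muscle genes rose beside the set. Of genes outside it, 145 had at least 1 FPKM in all 3 muscle-rich libraries and at least 10 times the highest of the other 7. The 5 most abundant were the glycolytic enzymes Eno3, Pgam2 and Pfkm, the intermediate filament gene Des and the titin cap Tcap. Eno3 was at 547, 1205 and 2089 FPKM and Tcap at 306, 736 and 1082 FPKM. The 145 took 1.59%, 2.52% and 4.23% of the reads of Flox 3, Flox 5 and Ad-GHRKO 1, so the 44 genes took 5.05, 4.55 and 4.75 times as many, and 4.28 times as many in Ad-GHRKO 5. The 145 were chosen by being high in these 3 libraries and lower in Ad-GHRKO 5, so this proportion follows in part from the choice.

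Of 19 further sarcomere and Z-disc genes, 12 met the same 10-fold mark, as did 10 of 15 further calcium and excitation genes, among them Hrc, a calcium-binding protein of the reticulum, and Jph2. It was met by 4 of 11 myogenic regulators and satellite cell genes, led by Myf6, the regulator of mature fibres, at 13.2, 30.6 and 48.6 FPKM, and Mstn, myostatin, at 4.58, 6.95 and 16.6 FPKM. Myod1 and Cdh15 of the same list met it too. Myod1 was at 3.92, 5.33 and 6.90 FPKM and Cdh15 at 2.76, 3.59 and 7.04 FPKM. Pax7, the satellite cell marker, stayed at 0.168 FPKM or less. Of 8 genes of the neuromuscular junction 1 met the 10-fold mark, and none of 4 developmental isoforms, where the neonatal chain Myh8 reached 0.752 FPKM. The mark also needs at least 1 FPKM in all 3, and 1.51% of all genes with such a level met it. Higher in each of the 3 than in every one of the other 7 were 8 of the 11 myogenic genes. The same held for 7 of the 8 junction genes and 3 of the 4 developmental isoforms, against 4.17% of all genes with a value. Slow-fibre genes outside the set, chosen after their values were seen, showed the excess of Flox 3 too: Csrp3 was at 6.97, 1.45 and 0.532 FPKM and Myoz2 at 1.49, 0.245 and 0.144 FPKM in Flox 3, Flox 5 and Ad-GHRKO 1.

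The comparison the labels give is that of genotypes, which asks how the fat of old mice differs when the receptor gene is targeted. None of the 44 genes passed it. The filter of at least 1 FPKM in at least 5 libraries was passed by 10 of them, and 0 of these 10 changed at an adjusted p of 0.05 (limma on log2(FPKM + 1), Benjamini-Hochberg over all genes), against 2.19% of the 12785 genes tested. At an unadjusted p of 0.05 it was also 0, and limma voom on the recovered reads called 0. The median log2 difference, Ad-GHRKO minus Flox, was -0.33 over the 10 and 0.04 over all tested genes. With no filter it was -0.58 over all 44 genes and 0.01 over all 31285, with 0 of the 44 called. These medians rested on single libraries: without Ad-GHRKO 1 they were -1.74 and -1.86, and without Flox 5 they were 0.66 and 0.36.

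Acta1 averaged 3713 ± 5235 FPKM over the 5 Flox libraries and 4142 ± 9048 FPKM over the 5 Ad-GHRKO libraries (SD), and both groups held high and low libraries. Its log2 difference was 0.10 (SE 2.46, limma adjusted p = 0.989), with an exact two-sided permutation p = 0.976, where 0.00794 is the smallest that 5 libraries against 5 allow. Ckm differed by -0.86 in the unfiltered fit (limma adjusted p = 0.943, exact permutation p = 0.944). For neither marker was the difference larger than the spread within a genotype, which the muscle-rich libraries set. The other tested genes of this kind, Mylpf, Tnnt3, Myl1, Tpm1, Tpm2 and Casq1, had log2 differences from -0.89 to -0.24, which turned with single libraries. Tpm3 did not rise with muscle, and its lowest values were those of Flox 5 and Ad-GHRKO 1. It was at 32.99, 25.0, 28.2, 31.6 and 16.8 FPKM in Flox 1 to 5. In Ad-GHRKO 1 to 5 it was at 20.8, 36.6, 43.4, 38.6 and 53.6 FPKM. Apart from the low Ad-GHRKO 1 its Ad-GHRKO values were above all of Flox, and the log2 difference of 0.48 (SE 0.25) did not pass (limma adjusted p = 0.388). It was 0.68 with Ad-GHRKO 1 left out (limma adjusted p = 0.0585). After rescaling to the sum without muscle genes it was 0.61 (limma adjusted p = 0.0692), and neither passed.

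**Figure D5:**
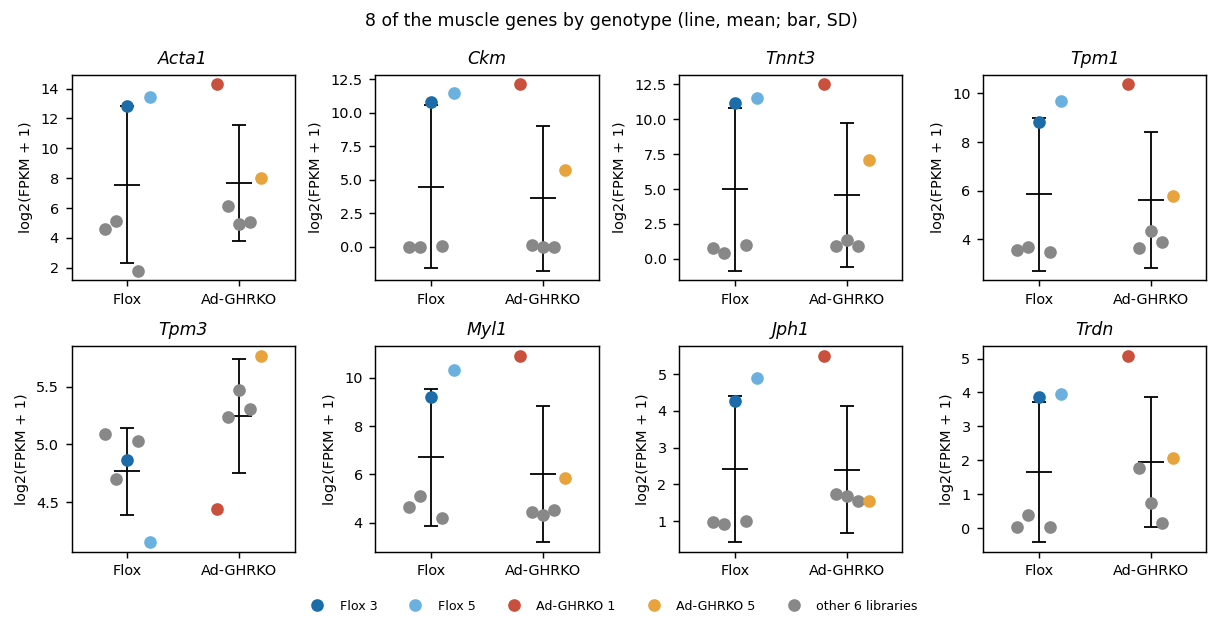
log2(FPKM + 1) of 8 genes in the 5 Flox and 5 Ad-GHRKO libraries (points; coloured for the 4 libraries with muscle reads, grey for the other 6; line, mean; bar, SD). For Acta1, Ckm, Tnnt3, Tpm1 and Myl1 the spread is set by the coloured libraries, while the grey points of Jph1 are higher in Ad-GHRKO than in Flox.

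With Flox 3, Flox 5 and Ad-GHRKO 1 left out, 1 of the 10 tested genes changed, against 6.08% of all 12785 genes. This was Jph1, which anchors the reticulum to the surface membrane in muscle (chromosome 1, 16964560 to 17097889, minus strand). It was at 0.971, 0.897 and 1.02 FPKM in Flox 1, 2 and 4 and at 2.36, 2.19, 1.93 and 1.90 FPKM in Ad-GHRKO 2 to 5. The log2 difference was 0.66 (SE 0.10, limma adjusted p = 0.0206), and 0.69 (adjusted p = 0.0274) with Ad-GHRKO 5 left out as well. With all 10 libraries it was -0.02 (adjusted p = 0.997), and the 3 libraries left out had been picked by genes of the set, Jph1 among them. With no filter on low values the limma call ended (adjusted p = 0.0669). The 12785 genes were those that passed the filter over all 10 libraries, so the 3 left out helped to choose them. Within the 7 kept, Jph1 still met the filter of 1 FPKM in 5 libraries, but Trdn, Tnnt3, Casq1 and Mylpf did not. In these 7 libraries Trdn differed by 1.03 (adjusted p = 0.185), Tpm3 by 0.51 (0.101) and Acta1 by 2.16 (0.203), and none of these passed. Ckm was at 0 to 0.0895 FPKM in these libraries apart from Ad-GHRKO 5, which had 53.5 FPKM.

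Of the further muscle genes listed above, none changed between genotypes with all 10 libraries: 0 of 7 tested sarcomere and Z-disc genes, 0 of 6 calcium and excitation genes, 0 of 13 genes of muscle energy metabolism, 0 of 4 of the dystrophin complex and 0 of 2 myogenic regulators (limma, adjusted p), against 2.19% of all genes. Without the 3 muscle-rich libraries, 2 of the 13 energy genes fell, against 6.08% of all genes changed. Cox8b, a subunit of cytochrome c oxidase that brown fat also uses, fell by 2.48 on the log2 scale (limma adjusted p = 0.0186), and Phkg1, a subunit of phosphorylase kinase, by 1.37 (adjusted p = 0.0284). Neither is among the 44 genes. The 4 brown adipocyte markers summed to 14.2 to 72.0 FPKM in Flox and 3.34 to 14.8 FPKM in Ad-GHRKO, and 1 of them, Cidea, fell by 2.25 with all 10 libraries (adjusted p = 0.0297) and differed by -2.09 in the 7 (adjusted p = 0.0844). Their part in the difference of Cox8b was not tested.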

How the data were processed

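RNA of 10 inguinal fat samples, 5 per genotype, was selected with oligo(dT) beads and copied into libraries with a marked second strand, per the labels' protocols. The authors deposited FPKM values, 1 column per library, per the file headers; aligner, counting tool and strand setting: not given in the sources used here. GRCm39 is named in the submitters' processing notes, but 99.54% of the 31253 genes also in GENCODE M21 carry its GRCm38 coordinates, so coordinates are given as GRCm38. Multiplying FPKM by M21 exon lengths gave whole reads (tolerance 0.01) for 99.24% to 99.30% of values per library, and with 14.6 to 19.2 M reads counting error is large only for genes with few reads. No columns were left unmapped, and 0 pairs of libraries held identical values. Of the 44 genes, 11 share more than 5% of their exon bases with a gene on the opposite strand, which unstranded counting could blur.

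Genotypes were compared with limma 3.58.1 (R 4.3.3; trended variance, two-sided, Benjamini-Hochberg at 0.05) on log2(FPKM + 1), for genes reaching 1 FPKM in 5 or more libraries; the log scale understates changes of low genes. Acta1 and Ckm also had exact permutation tests. Shares, ratios to Ckm and motif matches were computed in Python 3.11.15. The limma script was tested on simulated data. The members and lists were chosen with earlier results of these data known. All 44 members are named, with partners in isoform pairs. Up to 2 most abundant genes and up to 2 changed genes are named per companion or marker list. The 5 leading genes of the same pattern are named too. Csrp3, Myoz2, Pax7, Myod1, Cdh15, Ppp2r5b, Ube2c, Adora1 and Ghr fall outside that rule. Alternatives were a pseudocount of 0.1, other filters and scalings (TPM, quantile, median ratio, the sum without muscle genes), a replicate block, voom, leaving out libraries, and other denominators. A fit with no filter and without the 3 muscle-rich libraries was added after seeing the data. The result of 1 marker list is not reported here.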

Additional observations from a re-analysis of the deposited data

Results flagged for a closer look

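In 23 of the 81 groups of 5 libraries examined (1 gene in 1 genotype, with at least 1 FPKM in a library), the highest library stood apart on log2(FPKM + 1), with a gap to the next above 0.71 of the group's range. Chance would flag about 1 in 20 groups, but that rate is no measure here. Flox 3 and Ad-GHRKO 1 were picked by these same genes, and the genes vary together, so the flags are not independent. A gene high in both Flox 3 and Flox 5 leaves no wide gap, so in Flox the rule can only find genes high in 1 of them. Myh7, Tnni1, Tnnt1, Tnnc1, Myl2, Myl3 and Myh2 were examined in Flox only because Flox 3 reached 1 FPKM. Lmod2, Myh2, Actn2 and Cacna1s were examined in Ad-GHRKO only because Ad-GHRKO 1 reached it. In Flox the library was Flox 3 for each flagged gene, all of them slow or oxidative isoforms: Myh7 (3.12 FPKM), Tnnt1 (4.04), Tnnc1 (5.36), Tnni1 (1.68), Myl2 (4.40), Myl3 (2.39) and Myh2 (17.4). In these groups Flox 5, the other muscle-rich Flox library, lay nearer to the 3 that had little muscle than to Flox 3.

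In Ad-GHRKO the library was Ad-GHRKO 1 for each. Thin and thick filament genes flagged there were Neb (157 FPKM), Lmod2 (6.91), Tmod4 (164), Myh1 (78.4), Myh2 (4.03), Myl1 (1931) and Mylk2 (317). Scaffold genes were Ttn (70.4), Actn2 (42.5), Xirp2 (68.1), Cmya5 (115) and Smpx (57.2), and calcium and energy genes were Cacna1s (132), Ryr1 (208), Jph1 (44.4) and Ampd1 (178).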

How the results depend on the processing

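The count of genes called between genotypes was 280. It was 117 with no filter, 565 with quantile normalization, 531 with median ratio scaling, 875 after rescaling to the sum without muscle genes, 457 with voom, 777 without Flox 3, Flox 5 and Ad-GHRKO 1, 675 without Ad-GHRKO 5 as well and 231 with no filter and without the 3. Leaving out single libraries gave 116 (without Ad-GHRKO 3) to 1185 (without Ad-GHRKO 1). With TPM rescaling 262 genes were called, 38.2% of them lower against 64.6% before, and the median log2 difference of all genes went from 0.04 to 0.14. Rescaling without muscle genes left 21.4% lower. A replicate block gave 85 calls and 0 among the 44 genes. Deviations of same-numbered libraries correlated at 0.39 and 0.28 for numbers 2 and 4 and from -0.49 to -0.03 for numbers 1, 3 and 5. Numbers 1, 3 and 5 each hold a muscle-rich library in 1 genotype only. The correlations therefore cannot show whether the numbers denote pairs. The 0 calls among the 44 became 1 (Jph1) without the 3 muscle-rich libraries and 1 without Ad-GHRKO 5 as well, and stayed 0 to 0 when any single library was left out. No difference of Acta1 or Ckm passed under any setting (adjusted p from 0.203 and 0.659), but both signs occurred: Acta1 ran from -1.55 to 1.57 and Ckm from -2.99 to 0.89 over single libraries left out. Ckm was 1.44 without the 3 and 0.0136 without the 4 libraries with muscle reads. Without the 3, the log2 differences also turned for Jph1 (0.66), Tpm1 (0.84), Tpm2 (0.69), Myl1 (0.12), Casq1 (0.78), Mylpf (1.15) and Tnnt3 (1.84). Without the 4 they turned for Jph1 (0.69), Tpm1 (0.38), Tpm2 (0.13), Casq1 (0.26) and Tnnt3 (0.34). That of Jph1 was also positive with a pseudocount of 0.1 (0.13), TPM (0.18), rescaling without muscle genes (0.0672) and voom (0.12). Single libraries left out gave -0.79 to 0.60 for Jph1, -0.47 to 0.89 for Trdn, -1.44 to 0.72 for Tpm1, -1.94 to 0.48 for Tpm2, -1.92 to 0.21 for Myl1, -2.19 to 0.55 for Casq1, -2.83 to 0.73 for Mylpf and -2.40 to 1.23 for Tnnt3. The cause of these changes was not tested. By reads in place of FPKM the Myh4 share was 96.6% in Flox 3, 99.4% in Flox 5 and 98.98% in Ad-GHRKO 1, and with Myh3 and Myh8 added it was 99.4% in Flox 5. The 29 genes within 2-fold per Ckm were 29 per Acta1 and 30 per the other members, and the 9 pairs were 9 by reads. Depth limits the isoform shares of Ad-GHRKO 5 and leaves none for the 6 libraries with little muscle.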

Other observations

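Mybph, a myosin binding protein, did not follow the other muscle genes. It was at 12.4 FPKM in Flox 3, 70.4 in Flox 5 and 3.05 in Ad-GHRKO 1, so the library with the most Acta1 had the least of the 3. It was at 0.940 FPKM in Ad-GHRKO 5 and at 0.337 FPKM or less in the other 6. In the annotation 49.9% of the exon bases of Mybph overlap exons of Adora1 on the opposite strand. The part of that overlap in these values was not tested. Sln, sarcolipin, a small inhibitor of the calcium pump, was listed at 0 in all 7 other libraries and at 1.06, 0.598 and 4.19 FPKM in Flox 3, Flox 5 and Ad-GHRKO 1. Both were chosen after their values were seen, and neither was compared by a test.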
